A study of Mus musculus with 6 samples.

Results

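The 10 genes described here encode transcription factors that steer blood progenitors towards granulocytes, monocytes, mast cells and basophils. They are the C/EBP genes Cebpa, Cebpb, Cebpd, Cebpe and Cebpg, the interferon regulatory factors Irf4 and Irf8, the zinc finger repressors Gfi1 and Gfi1b, and Mitf. They were listed by name and are 10 of the 53801 gene entries in the count table. All 10 had an entry. Of these, 7 passed the filter on low counts and were tested; Cebpe, Irf4 and Gfi1 had too few counts.

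RNA was sequenced from mouse fetal liver cells of E12.5-13.5, 3 libraries per group. Cells of both groups came from mice of a B6J.129 background with a knock-in allele (code Fezh), which drives Cas9 and EGFP from the CAG promoter at the Rosa26 locus. All carried a guide against Gata1 (sgGata1) and are called Gata1s cells in the sample titles, after the shortened GATA1 protein. All expressed the microRNA miR-125b from a lentivirus. All received doxycycline at 1 μg/mL for 48 h, which switched on one further transgene, Arid3a-FLAG in one group and LUC in the other. The comparison therefore asks which transcripts differ when the DNA-binding protein Arid3a is induced in Gata1s cells that express miR-125b; the series title links ARID3A to megakaryocytes and to restraint of leukaemia. Whether each library had its own animals or its own culture is not in the labels. The p-values therefore speak only of the spread among these 6 libraries, which may be technical.

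C/EBP proteins bind DNA as dimers through a basic leucine zipper. CEBPA is needed for granulocyte and monocyte progenitors, CEBPE for late granulocyte maturation, and CEBPB for granulocyte output under stress. IRF8 promotes monocyte and dendritic cell fate at the expense of neutrophils and also acts in basophil and mast cell progenitors; IRF4 is its closest relative. GFI1 and GFI1B share a SNAG domain that recruits the LSD1 and CoREST corepressors. GFI1 acts in neutrophils and GFI1B in the erythroid and megakaryocyte lineages. MITF, a basic helix-loop-helix leucine zipper factor, is required for mast cells.

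Libraries held between 15728150 and 18249053 gene counts. Levels are CPM, a gene's counts scaled to a common library size, with library sizes scaled by edgeR's TMM factors. Changes were tested across 13631 genes with edgeR's quasi-likelihood test, with p-values adjusted by the Benjamini-Hochberg method and a threshold of 0.05. The construct entry had 2758 to 3348 counts in the Arid3a-FLAG libraries and 0 in each LUC library. LUC library 2 stood apart on the second principal component, which held 24.0% of the variance. The megakaryocyte markers were abundant, with a summed level of 6900 to 8669 CPM with LUC and 7222 to 7775 CPM with Arid3a-FLAG. A sum mostly reflects its most abundant genes. Of the 16 megakaryocyte markers, all tested, 5 were called higher and 1 lower. Their log2 fold changes were above 0 in 13 and below 0 in 3, with a median of 0.41. The mast cell and basophil markers summed to 4055 to 4696 CPM with LUC and to 2929 to 3866 CPM with Arid3a-FLAG, so the groups did not overlap. The 18 neutrophil markers summed to only 29.1 to 32.0 CPM with LUC and 17.1 to 30.4 CPM with Arid3a-FLAG, and the 18 monocyte and macrophage markers to 24.5 to 29.6 and 31.7 to 41.9 CPM. Although the neutrophil sums overlapped, 3 of the 6 tested neutrophil markers were called lower, 0 higher and 3 not called. That is 50% called, beside 7.29% of all tested genes. Their log2 fold changes were below 0 in 5 and above 0 in 1, with a median of -0.73. Of the hepatocyte markers 6 of 12 had 0 counts in every library (Ttr, Serpina1a, Fgb, Fga, Hnf4a and Apob). In such bulk RNA, fewer cells of a type and less RNA per cell cannot be told apart.

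Of the 7 tested genes, 1 fell (Irf8), 0 rose and 6 did not pass, against 7.29% of all tested genes called in either direction, 3.87% called lower and 3.43% called higher. Irf8 and Cebpb were the 2 at an unadjusted p under 0.05, against 25.6% of all tested genes. The median log2 fold change of the 7 genes was -0.10, beside -0.03 over all tested genes. For 6 of the 7 the 95% interval of the change lay within 2-fold in both directions. The exception was Irf8. The LUC and Arid3a-FLAG libraries did not overlap for 2 of the 7, again Irf8 and Cebpb, a share near the 33.1% of all tested genes.

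**Figure D1:**
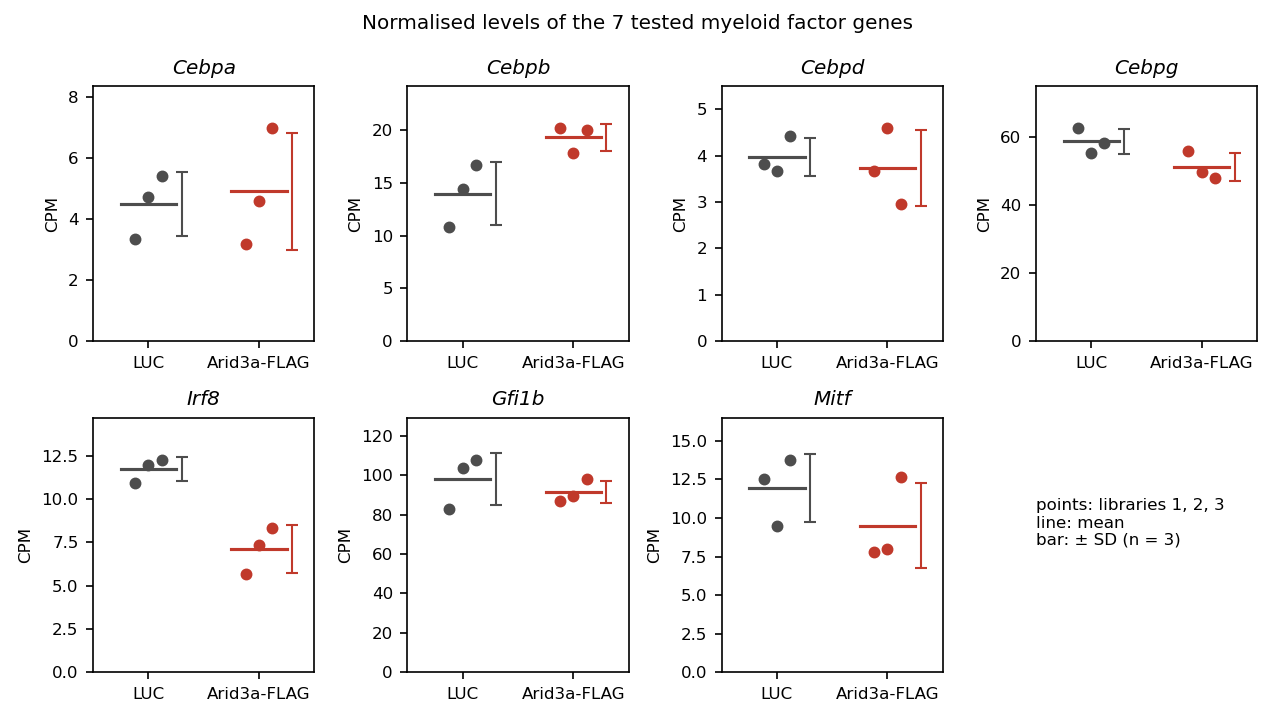
CPM of the 7 tested genes in each library (vertical axes, each from 0), with LUC in grey and Arid3a-FLAG in red; lines are means and bars ± SD over 3 libraries. The groups are fully apart for Irf8 (lower with Arid3a-FLAG) and Cebpb (higher), and overlap for the other 5.

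**Figure D2:**
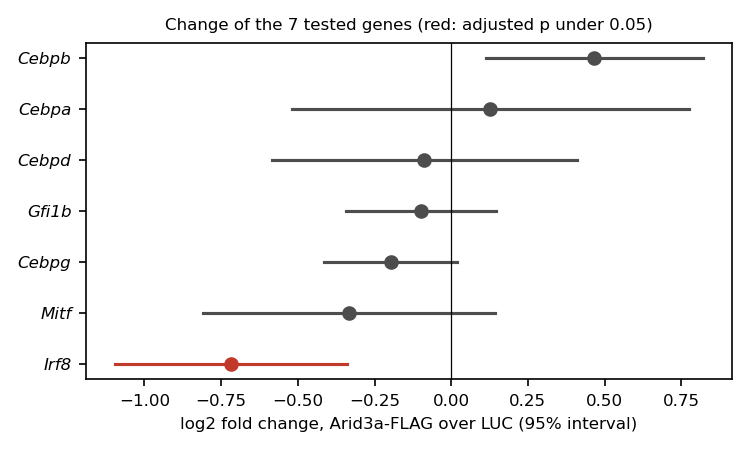
Log2 fold change of each tested gene (points) with its 95% interval (lines). The interval of Irf8 runs from -1.09 to -0.34 and that of Cebpb from 0.11 to 0.82; the other 5 include 0.

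Irf8 (ENSMUSG00000041515, chromosome 8, 120736358 to 120756694, plus strand, mm10) was the only gene of the group past the threshold. Its promoter is printed here because it belongs to that gene, with that of Irf4, its closest relative, for comparison. Each line gives the 250 bases before the RefSeq start site, 5′ to 3′ on the plus strand of GRCm38.p6. Capitals mark matches to the motifs named after the sequences.
Irf8, chr8:120736108-120736357: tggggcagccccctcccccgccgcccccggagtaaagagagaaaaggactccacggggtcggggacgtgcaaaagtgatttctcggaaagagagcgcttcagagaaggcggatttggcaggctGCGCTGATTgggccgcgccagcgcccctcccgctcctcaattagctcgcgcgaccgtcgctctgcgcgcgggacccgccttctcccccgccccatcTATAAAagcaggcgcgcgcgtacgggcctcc
Irf4, chr13:30748983-30749232: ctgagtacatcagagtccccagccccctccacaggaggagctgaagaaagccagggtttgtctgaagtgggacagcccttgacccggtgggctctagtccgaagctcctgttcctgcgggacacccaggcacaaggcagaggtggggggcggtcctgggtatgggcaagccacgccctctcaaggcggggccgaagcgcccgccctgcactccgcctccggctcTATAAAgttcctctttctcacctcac

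The motifs searched on both strands were AGATAA for GATA factors, ATTAAA for ARID3A, TTGCNNAA for C/EBP, the IRF and ETS composite element, CACGTG and CATGTG for MITF and AATCNNNGC for GFI1 and GFI1B. TATAAA, the TATA box, was added after the sequences were seen. The Irf8 window held 1 match to the GFI1 motif, on the minus strand, 127 to 119 bases before the start, and a TATAAA 31 to 26 bases before it. The Irf4 window held a TATAAA 26 to 21 bases before the start and no other match. Over 32851 windows of this length, 8.87% held the GFI1 motif and 12.4% a TATAAA. The promoters are rich in G and C, 67.2% of the Irf8 window and 63.6% of the Irf4 window, and the Irf8 window held 29 CpG dinucleotides against 11. The table lists a further start for Irf8 (chr8:120738389-120738638 is its window), and gene counts do not tell the starts apart. A match is a description of letters, not of binding.

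Irf8 stood at 10.9, 12 and 12.3 CPM in LUC libraries 1, 2 and 3 and at 5.65, 7.37 and 8.35 CPM in Arid3a-FLAG libraries 1, 2 and 3. Every Arid3a-FLAG library was below every LUC library, which was also so for 16.5% of all tested genes. The means were 11.7 ± 0.701 and 7.12 ± 1.37 CPM (SD, n = 3), which gives a log2 fold change of -0.72 (95% interval -1.09 to -0.34, SE 0.17; adjusted p = 0.032), or 1.64-fold lower. The spread between LUC libraries was 5.99% of the mean and between Arid3a-FLAG libraries 19.2%. Counting alone gives 7.95% at the mean count over all 6 libraries, a value not computed for each group. Each library held between 91 and 227 reads of the gene. The direction was the same with each library left out, but the adjusted p was 0.073 without LUC library 1, 0.077 without LUC library 3, 0.137 without Arid3a-FLAG library 1 and 0.117 without Arid3a-FLAG library 2, which leaves 0 of the 7 genes called lower. The lower levels of Irf8 came with the lower mast cell and basophil sum given above. Of its 18 genes 16 were tested, none at 0 throughout. Of these, 4 were called lower, 0 higher and 12 not called, with log2 fold changes below 0 in 11 and above 0 in 5. The lower levels of Irf8 also came with lower lymphoid markers. Their sum ran from 34.7 to 47.6 CPM with LUC and from 10.3 to 11.6 CPM with Arid3a-FLAG. Of the 16 lymphoid genes 4 were tested and 12 were not, and Ebf1, Rag1, Ms4a1 and Cd2 were at 0. Of the 4 tested, 2 were called lower, 0 higher and 2 not called, with log2 fold changes below 0 in all 4. Eosinophil markers were lower too, at 12.1 to 14.4 and 6.58 to 8.98 CPM (1 of 10 tested; Ear1, Ear2 and Ear6 at 0). The monocyte and macrophage sum given above went the other way, higher with Arid3a-FLAG without overlap. Of its 18 genes 8 were tested, with log2 fold changes above 0 in 5 and below 0 in 3. Ms4a7, Marco and Vcam1 had 0 counts. Only Csf1r was called, higher (log2 fold change 1.59), and it counts towards this sum. The part of these sums in the result was not tested.

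Irf4, which acts in lymphocytes and dendritic cells, had 3, 0 and 2 counts with LUC and 2, 4 and 0 with Arid3a-FLAG. The group sums were 5 counts (95% exact Poisson interval 1.62 to 11.7) and 6 counts (2.20 to 13.1), both intervals for counting error only. No difference was detectable at this depth. Per kilobase of exon, and over all 6 libraries, Irf8 with 950 counts was 60.02-fold above Irf4 with 11 (33.5 to 120.2 by the counting interval of Irf4). The ratio depends on the gene model: per kilobase of the longest transcript it was 119-fold (66.3 to 238).

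By Pearson's r of log2 CPM over the 6 libraries, among 9615 other genes of at least 5 CPM, the pattern of Irf8 was most like those of Reps1 (r = 0.998), Wdr45 (0.996) and Mpp1 (0.995). With 6 libraries in 2 groups such values are descriptions only, and all genes share the depth of the libraries. None of these genes passed the threshold, and their log2 fold changes of -0.10, -0.26 and -0.37 were smaller than that of Irf8. Mpp1, a palmitoylated membrane protein of red cells, ran from 35.5 to 37.7 CPM with LUC and from 26.3 to 30.5 CPM with Arid3a-FLAG.

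Among 14 other IRF factors and known partners of IRF4 and IRF8, 11 were tested, 1 fell, 0 rose and 10 did not pass (9.09% called, median log2 fold change -0.06). The gene that fell was Irf3, the factor that switches on type I interferon after viral sensing. It stood at 82.2, 75.7 and 69.6 CPM in LUC cells, against 61.6, 56.2 and 59.4 CPM in Arid3a-FLAG cells (-0.36, SE 0.09, adjusted p = 0.045). This call was lost without LUC library 1 or any 1 of the Arid3a-FLAG libraries (adjusted p up to 0.218), under RLE scaling (0.0501) and with the replicate block (0.064). Irf5, a factor of macrophage inflammatory responses, had 17.9 to 21.4 CPM with LUC and 13.5 to 15.6 CPM with Arid3a-FLAG (-0.46, SE 0.13, adjusted p = 0.051; 0.029 in DESeq2); 14.1% of its exons overlap Tnpo3 on the opposite strand. Spi1, which encodes PU.1, the ETS partner of both factors on DNA, had 64.8, 76.4 and 73.6 CPM in LUC cells, against 51.8, 46.1 and 65.1 CPM in Arid3a-FLAG cells (-0.40, SE 0.13, adjusted p = 0.089). Irf1, an interferon-induced activator, had a difference of -0.35 on the log2 scale, short of the threshold (SE 0.12, adjusted p = 0.112).

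Of 20 reported IRF8 targets in monocytes and dendritic cells 10 were tested. Of these, 3 fell, 0 rose and 7 did not pass (30.0% called, beside 7.29% of all tested genes), while the median was 0.11. Targets here and below were listed from general knowledge, and regulation was not measured in these cells. Cst3, the protease inhibitor cystatin C, stood at 178, 228 and 186 CPM in LUC cells, against 139, 129 and 155 CPM in Arid3a-FLAG cells, with groups apart (-0.48, SE 0.11, adjusted p = 0.031). Ctsc, the protease that activates granule serine proteases, fell by 0.36 on the log2 scale (adjusted p = 0.044), and H2-Ab1, an MHC class II chain, by 0.69 (adjusted p = 0.0498). Leaving out 1 Arid3a-FLAG library, whichever it was, ended all 3 calls. Those of Ctsc and H2-Ab1 also ended without LUC library 3, and that of Ctsc without LUC library 1 (adjusted p up to 0.171, 0.204 and 0.198). With all libraries, H2-Ab1 missed the threshold under RLE scaling (adjusted p = 0.052), the 5 CPM filter (0.055) and limma-voom (0.068), and Ctsc with the replicate block (0.062). Cx3cr1, the fractalkine receptor of monocytes, lay in the other direction, at 0.578, 0.392 and 1.35 CPM in LUC cells, against 1.61, 1.80 and 2.64 CPM in Arid3a-FLAG cells (1.34, SE 0.43, adjusted p = 0.086; adjusted p = 0.030 without LUC library 3). The direction of the called targets is thus not that of every tested target.

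Of the C/EBP genes, Cebpb and Cebpg held most of the reads. Cebpb (ENSMUSG00000056501, chromosome 2, 167688915 to 167690418, plus strand) stood at 10.9, 14.4 and 16.7 CPM in LUC cells, against 20.2, 17.9 and 20.0 CPM in Arid3a-FLAG cells. Every Arid3a-FLAG library was above every LUC library, as for 16.6% of all tested genes. The means were 14 ± 2.95 and 19.4 ± 1.28 CPM (SD, n = 3). The log2 fold change of 0.47 (95% interval 0.11 to 0.82, SE 0.16) did not pass the threshold (adjusted p = 0.102). It passed without LUC library 3 (0.65, adjusted p = 0.041). Cebpb is a gene without introns, and 20.7% of its exon bases overlap Tmem189 on the opposite strand. Whether counting used strand is not given, so reads of both genes may mix; Tmem189 itself had a log2 fold change of 0.06 (adjusted p = 0.707).

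Cebpg (ENSMUSG00000056216, chromosome 7, 35046422 to 35056573, minus strand) encodes a short C/EBP protein that lacks an activation domain and pairs with the others. It stood at 62.6, 55.3 and 58.4 CPM in LUC cells, against 55.9, 49.8 and 48.1 CPM in Arid3a-FLAG cells. Arid3a-FLAG library 1 lay just above LUC library 2, so the groups overlapped. The log2 fold change was -0.20 (95% interval -0.41 to 0.02, SE 0.10; adjusted p = 0.234). With 766 to 1083 reads a library, its SE was the smallest of the 7.

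Cebpa (ENSMUSG00000034957, chromosome 7, 35119293 to 35121928, plus strand) lies 62.7 kb from Cebpg. It stood at 3.35, 4.71 and 5.40 CPM in LUC cells, against 3.17, 4.59 and 6.97 CPM in Arid3a-FLAG cells. The range with Arid3a-FLAG enclosed the range with LUC. The log2 fold change was 0.13 (95% interval -0.52 to 0.77, SE 0.29; adjusted p = 0.819), and leaving out LUC library 1 turned it to -0.03 and leaving out Arid3a-FLAG library 3 to -0.21. The spread between libraries was 23.2% and 39.2% of the mean. Counting alone gives 11.3% at the mean count over all 6 libraries, so the libraries varied beyond counting error.

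Cebpd (ENSMUSG00000071637, chromosome 16, 15887286 to 15891031, plus strand), a factor of acute inflammatory responses, stood at 3.81, 3.66 and 4.43 CPM in LUC cells, against 3.66, 4.59 and 2.95 CPM in Arid3a-FLAG cells. The groups overlapped, with a log2 fold change of -0.09 (95% interval -0.58 to 0.41, SE 0.22; adjusted p = 0.839). The sign turned without LUC library 3 (0.03) or Arid3a-FLAG library 3 (0.06). Spidr overlaps 15.0% of its exon bases on the opposite strand. Cebpe (chromosome 14, 54710360 to 54712174, minus strand) had 1, 4 and 2 counts with LUC and 4, 2 and 3 with Arid3a-FLAG. The sums of 7 (95% exact Poisson interval 2.81 to 14.4) and 9 counts (4.12 to 17.1) allow no statement on a difference.

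Because C/EBP proteins pair with each other, their make-up was also compared within each library, as the share of each gene in the summed reads per kilobase of exon of all 5. The share of Cebpb was 34.9%, 42.8% and 44.8% with LUC and 52.1%, 49.96% and 52.3% with Arid3a-FLAG. The share of Cebpg was 53.8%, 43.9% and 41.8% with LUC and 38.6%, 37.2% and 33.6% with Arid3a-FLAG. Neither overlapped between the groups: the difference was 10.6 percentage points for Cebpb and -10.1 points for Cebpg. As these genes make up most of the sum, a higher share of one goes with a lower share of the other, and the differences are not independent. The two-sided exact permutation test gave p = 0.1 for each, the smallest that 3 against 3 libraries allow, and 0.25 after adjustment over the 5 genes. Without LUC library 1 the difference in the Cebpg share was -6.42 points. The share of Cebpa was 7.46 ± 1.15% with LUC and 7.45 ± 2.86% with Arid3a-FLAG (SD, n = 3, exact permutation p = 1). Shares rest on the exon length of each gene model and on where Cebpb reads may mix with those of Tmem189.

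**Figure D3:**
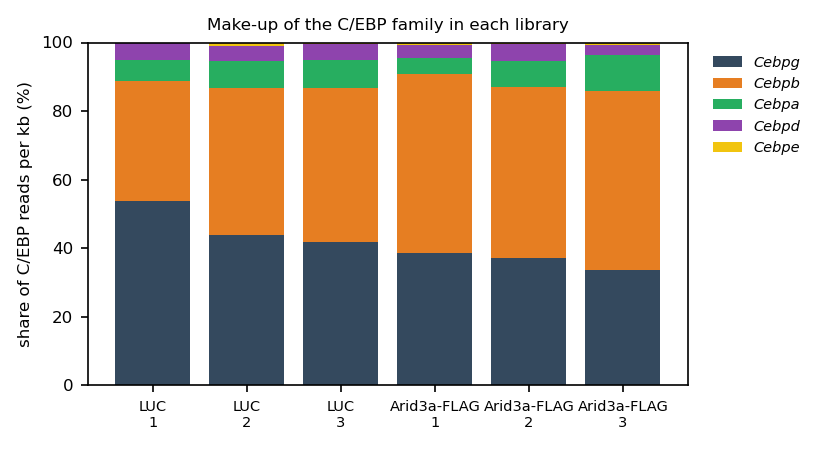
Share of each C/EBP gene in the summed reads per kilobase of exon of the 5 genes (vertical axis, %), as a stacked bar for each of the 6 libraries. Cebpb takes 34.9% to 44.8% in the LUC libraries and 49.96% to 52.3% in the Arid3a-FLAG libraries.

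Of 11 other leucine zipper factors that pair with or resemble C/EBP proteins, 9 were tested, 1 fell, 0 rose and 8 did not pass (11.1% called, median -0.24). Hlf, a PAR-type zipper factor of blood stem cells, fell from 7.45, 6.28 and 8.91 CPM with LUC to 4.04, 2.15 and 4.77 CPM with Arid3a-FLAG (-1.05, SE 0.27, adjusted p = 0.043). The groups were apart, but the call was lost without LUC library 1 or 3 or Arid3a-FLAG library 1 or 2 (adjusted p up to 0.138). Its relatives Dbp and Tef had log2 fold changes of -0.34 (SE 0.16) and -0.22 (SE 0.12), with adjusted p of 0.224 and 0.280. Batf, a zipper factor that binds DNA with IRF4 or IRF8, had 23.3, 35.4 and 24.9 CPM in LUC cells, against 23.3, 24.0 and 22.4 CPM in Arid3a-FLAG cells (-0.26, SE 0.15, adjusted p = 0.315); its difference rested on LUC library 2, without which it was -0.04. Dbp shares 18.0% of its exon bases with Sphk2 on the opposite strand.

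Of 24 reported C/EBP targets 12 were tested: 2 rose, 3 fell and 7 did not pass (median 0.12). The share called was 41.7%, beside 7.29% of all tested genes. Like shares were called among the erythroid markers (46.2%) and the megakaryocyte markers (37.5%). Late granule genes such as Ltf, Camp, Ngp, S100a8 and S100a9 were among the 12 with too few counts. Csf1r, through which M-CSF drives macrophage growth, stood at 1.85, 2.81 and 3.18 CPM in LUC cells, against 7.14, 8.24 and 8.29 CPM in Arid3a-FLAG cells (1.59, SE 0.22, adjusted p = 0.0030). All Arid3a-FLAG libraries lay above all LUC libraries, and the call held in all 13 alternatives; Hmgxb3 overlaps 15.1% of its exon bases on the opposite strand. Trib2, a pseudokinase that promotes breakdown of C/EBPα protein, rose from 16.4 ± 1.62 to 24.1 ± 3.89 CPM (0.56, SE 0.14, adjusted p = 0.039). Its call was lost without LUC library 1 or any 1 of the Arid3a-FLAG libraries (adjusted p up to 0.197).

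The C/EBP targets that fell included granule proteases of early granulocytes, which mast cells and basophils can also express. Ctsg, cathepsin G, stood at 4.10, 4.58 and 4.86 CPM in LUC cells, against 1.68, 1.28 and 2.51 CPM in Arid3a-FLAG cells (-1.31, SE 0.27, adjusted p = 0.018). Il1b, the cytokine interleukin 1 beta, stood at 15.9, 23.1 and 24.7 CPM in LUC cells, against 10.8, 12.3 and 12.2 CPM in Arid3a-FLAG cells (-0.85, SE 0.17, adjusted p = 0.015). Both were apart between the groups. Prtn3, proteinase 3, was the other that fell (-1.01, SE 0.25, adjusted p = 0.035). Without Arid3a-FLAG library 1 or 2 none of the 3 falls was called, and without LUC library 1 only 1 was. Mpo, myeloperoxidase, did not pass: it stood at 9.77, 9.61 and 8.80 CPM in LUC cells, against 6.08, 5.98 and 14.4 CPM in Arid3a-FLAG cells, where library 3 alone was high.

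Gfi1 (ENSMUSG00000029275, chromosome 5, 107716657 to 107726036, minus strand) had 0 counts in all 6 libraries. For a count of 0 a floor of 3 counts a library was taken, or 0.164 to 0.191 CPM on unscaled totals. The exact 95% Poisson interval used for Irf4 and Cebpe reaches 3.69 for a count of 0, so it would give a lower ratio below. Of 21967 protein-coding entries, 29.3% had 0 counts throughout. The antisense gene A430072P03Rik, which overlaps Gfi1, was also at 0, and the table does not show whether reads of this locus were lost in counting. Gfi1b (ENSMUSG00000026815, chromosome 2, 28609450 to 28621982, minus strand) was the most abundant of the 10 genes per kilobase. It stood at 82.9, 103 and 108 CPM in LUC cells, against 87.0, 89.5 and 97.8 CPM in Arid3a-FLAG cells. The Arid3a-FLAG libraries lay within the range of the LUC libraries, with a log2 fold change of -0.10 (95% interval -0.34 to 0.15, SE 0.11; adjusted p = 0.609), and 0.0049 without LUC library 3. Per kilobase of exon Gfi1b was at least 814-fold to 1158-fold above Gfi1 in the 6 libraries, taking Gfi1 at 3 counts per library, a bound that holds only if reads of Gfi1 were counted.

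Per kilobase of exon the order of levels with LUC was Gfi1b at 53.5 ± 7.23, Cebpg at 10.5 ± 0.653 and Cebpb at 9.30 ± 1.96 CPM per kilobase (SD, n = 3). Mitf at 1.93 ± 0.356, Cebpa at 1.70 ± 0.395 and Irf8 at 1.66 ± 0.0994 followed, then Cebpd at 1.06 ± 0.108, and Cebpe and Irf4 near 0. On this scale the SDs of Cebpg and Cebpb overlapped, as did those of Mitf, Cebpa and Irf8. With Arid3a-FLAG, Cebpb at 12.9 ± 0.853 stood above Cebpg at 9.12 ± 0.729, while Irf8 was at 1.01 ± 0.194 and Cebpd at 0.997 ± 0.219. The order rests on gene length: the exons of Irf8 span 7055 bases in all and its longest transcript 3469. Per kilobase of longest transcript Irf8 stood at 3.38 ± 0.202 with LUC, above Mitf at 2.44 ± 0.452 and Cebpa at 1.71 ± 0.396, and at 2.05 ± 0.394 with Arid3a-FLAG, above Cebpd at 0.997 ± 0.219. Cebpg, at 12.48 ± 0.780, then stood above Cebpb at 9.30 ± 1.96 with LUC.

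Of 16 genes of the GFI1 and GFI1B corepressor complexes and related SNAG factors, 14 were tested, 1 rose, 0 fell and 13 did not pass (7.14% called, median 0.01). The core members Kdm1a, Hdac1 and Hdac2 were among those not called. Gse1, a component of the LSD1 complex, stood at 170, 116 and 208 CPM in LUC cells, against 243, 264 and 278 CPM in Arid3a-FLAG cells (0.67, SE 0.17, adjusted p = 0.043). The groups were apart, with LUC library 2 lowest. The call was lost without LUC library 1 or any 1 of the Arid3a-FLAG libraries (adjusted p up to 0.140), under upper quartile scaling (0.0508) and with the 5 CPM filter (0.054), and Gins2 overlaps 26.6% of its exon bases on the opposite strand. Rcor1, the CoREST scaffold, had a difference of 0.23 on the log2 scale, short of the threshold (SE 0.11, adjusted p = 0.210), its relative Rcor2 0.17 (adjusted p = 0.353) and the zinc finger protein Zmym2 0.11 (adjusted p = 0.456).

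Of 22 genes reported as repressed by GFI1 or GFI1B, 17 were tested, 2 rose, 0 fell and 15 did not pass (11.8% called, median 0.07). Itgb3, an integrin chain of megakaryocytes and platelets, stood at 367, 327 and 424 CPM in LUC cells, against 746, 755 and 682 CPM in Arid3a-FLAG cells (0.97, SE 0.11, adjusted p = 0.0010), a call that held in all 13 alternatives. The Itgb3 libraries were fully apart between the groups. Meis1, a homeodomain factor of blood progenitors, had a difference of 0.33 on the log2 scale, short of the threshold (SE 0.09, adjusted p = 0.054), and Cd34, a progenitor surface protein, one of -0.70 (SE 0.19, adjusted p = 0.054). Cd34 passed without LUC library 2 or Arid3a-FLAG library 3 (adjusted p = 0.024 and 0.011), and Meis1 without LUC library 2 (0.013). With all libraries both passed in DESeq2 (0.010 and 0.017) and with no filter, and Cd34 also in limma-voom (0.042) and with the replicate block (0.0095).

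Mitf (ENSMUSG00000035158, chromosome 6, 97807052 to 98021349, plus strand) stood at 12.54, 9.48 and 13.8 CPM in LUC cells, against 7.82, 8.01 and 12.7 CPM in Arid3a-FLAG cells. Arid3a-FLAG library 3 lay within the LUC range and the other Arid3a-FLAG libraries below it. The log2 fold change was -0.33 (95% interval -0.81 to 0.14, SE 0.22; adjusted p = 0.360), and it ran from -0.19 without LUC library 3 to -0.59 without Arid3a-FLAG library 3 (adjusted p = 0.135). RefSeq lists 3 starts for the gene, and these counts do not separate its isoforms.

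**Figure D4:**
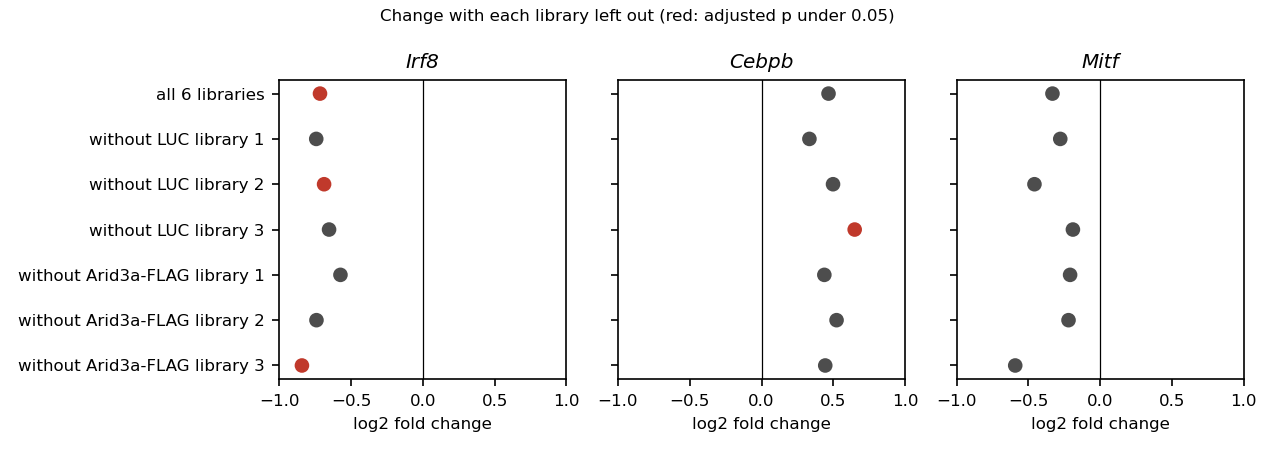
Log2 fold change (horizontal axis) of Irf8, Cebpb and Mitf with all 6 libraries and with each library left out; red points have an adjusted p under 0.05. Irf8 stays between -0.84 and -0.57, Cebpb between 0.33 and 0.65 and Mitf between -0.59 and -0.19.

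None of 13 tested genes among 15 relatives and partners of MITF passed the threshold in edgeR (median 0.08). By DESeq2 and limma-voom the counts were 0 as well. In edgeR 3 were lower and 1 higher at an unadjusted p under 0.05, a share close to the 25.6% of all tested genes. The 3 were Stat5a (-0.32, SE 0.10, adjusted p = 0.074) and Stat5b (-0.35, SE 0.12, adjusted p = 0.10), transducers of cytokine signals that mast cells need, and Hint1 (-0.36, SE 0.14, adjusted p = 0.132), a binding partner that restrains MITF. Fnip2, a folliculin partner in the control of the MITF relatives TFEB and TFE3, was the higher one (0.26, SE 0.12, adjusted p = 0.182). Stat5a stood at 95.7, 81.9 and 90.5 CPM in LUC cells, against 66.2, 70.7 and 77.6 CPM in Arid3a-FLAG cells, groups apart, and it passed without LUC library 2 (adjusted p = 0.0091), as did Stat5b (0.0058).

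Of 22 reported MITF targets, 15 were tested, 2 fell, 0 rose and 13 did not pass (13.3% called, median -0.09). The list was drawn up for mast cells and osteoclasts but also held the pigment cell genes Dct, Tyr, Pmel and Mlana. Gzmb, granzyme B, stood at 426, 567 and 489 CPM in LUC cells, against 235, 206 and 372 CPM in Arid3a-FLAG cells (-0.87, SE 0.20, adjusted p = 0.027). Cadm1, the adhesion molecule that anchors mast cells to fibroblasts and nerves, stood at 16.6, 20.5 and 22.6 CPM in LUC cells, against 11.4, 11.6 and 14.7 CPM in Arid3a-FLAG cells (-0.66, SE 0.16, adjusted p = 0.031). Both were apart between the groups. Without Arid3a-FLAG library 1 or 2, or LUC library 3, none of the list was called, and Gzmb was also lost without LUC library 1; without Arid3a-FLAG library 3, 4 were called lower. Reads of Gzmb may be shared with related granzyme genes.

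The mast cell protease Mcpt4 had 3.18, 4.64 and 3.94 CPM in LUC cells, against 1.18, 1.05 and 2.70 CPM in Arid3a-FLAG cells, but did not pass (-1.26, SE 0.35, adjusted p = 0.056; 0.012 without Arid3a-FLAG library 3). It passed with all libraries in DESeq2 (adjusted p = 0.013), in limma-voom (0.038), with the replicate block (0.040) and with no filter (0.00058). Acp5, the tartrate-resistant phosphatase of osteoclasts, had 1.51 to 1.79 CPM with LUC and 0.502 to 1.16 CPM with Arid3a-FLAG (-1.11, SE 0.36, adjusted p = 0.089). The tryptases Tpsb2 and Tpsab1 had 2 counts each over all libraries. Beside these values stands Fcer1a, the IgE receptor alpha chain and one of the most abundant mast cell and basophil markers, at 680, 860 and 705 CPM in LUC cells, against 304, 257 and 391 CPM in Arid3a-FLAG cells. Gata2, the most abundant gene of that marker list, had a log2 fold change of 0.10 (adjusted p = 0.668). The part of a changed mast cell or basophil content in the values of MITF targets was not tested.

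**Figure D5:**
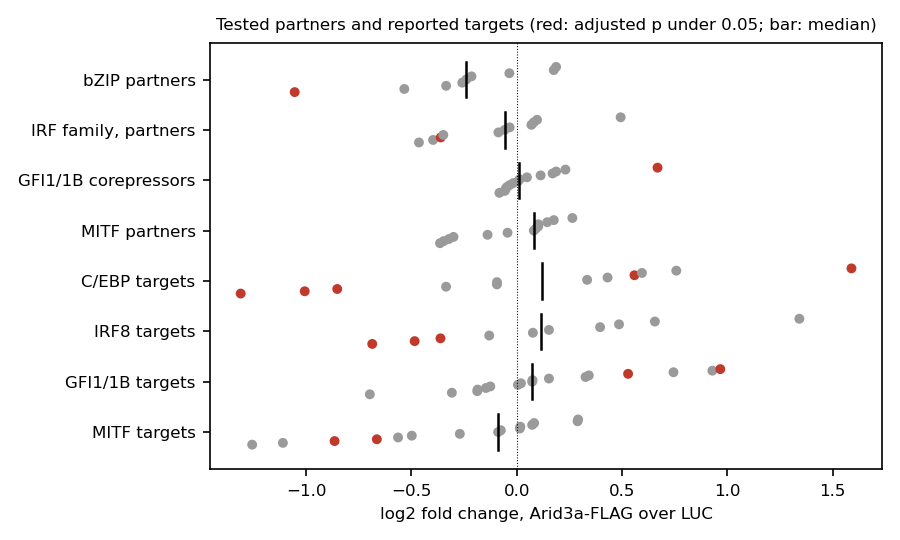
Log2 fold change (horizontal axis) of every tested gene in the 8 lists of partners and reported targets; red points have an adjusted p under 0.05, grey points do not, and black bars are list medians. Called genes lie on both sides of 0 only among the C/EBP targets, 2 above and 3 below; medians run from -0.24 to 0.12.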

How the data were processed

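The authors deposited read counts per gene, whole numbers without normalization, for 6 libraries of total RNA, extracted with a Zymo Quick-RNA kit per the labels' protocols. Per the submitters' processing notes the tools were featureCounts, HISAT2 2.0.5 and fastp, with mm10. Their settings, the annotation release and any use of strand: not given in the sources used here. Columns were matched to samples by their descriptions. GENCODE M21 supplied gene symbols, positions and exon lengths (95 identifiers unmatched, at most 0.0170% of a library), and promoter letters from RefSeq on GRCm38.p6, which had windows for 8 of the 10 genes.

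In R 4.3.3, edgeR 4.0.16 was used (filterByExpr, TMM, glmQLFit and glmQLFTest, group as the only term, two-sided). The construct entry was left out of library sizes and tests. The pipeline was tested on simulated data. Each SE was derived from the fold change and its F statistic (absolute log2 fold change over √F). Alternatives were RLE and upper quartile scaling, no low-count filter, a floor of 5 CPM in 3 libraries, limma-voom (limma 3.58.1), DESeq2 1.42.0, a replicate block, an adjusted p under 0.01, and each library left out. Ratios of Gfi1b to Gfi1 and of Irf8 to Irf4 were planned as tests per library; counts of 0 in Gfi1 and Irf4 left a bound and a pooled ratio instead. Named genes are the 10 members, up to 4 genes of smallest p per list (2 in each direction where both held called genes), the 2 most abundant of a marker list and the 3 genes most like a called member; Tpsb2, Tpsab1, Kdm1a, Hdac1, Hdac2 and the untested genes were named after their values were seen. The values of 1 gene that this rule names are not reported here. Members and lists were chosen with earlier results of these data known.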

Additional observations from a re-analysis of the deposited data

How the results depend on the processing

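The 7 tested genes kept their direction in the fits with all libraries. With 1 library left out, log2 fold changes ran from -0.84 to -0.57 for Irf8, 0.33 to 0.65 for Cebpb, -0.21 to 0.36 for Cebpa (-0.03 without LUC library 1), -0.26 to 0.057 for Cebpd (0.03 without LUC library 3), and -0.18 to 0.0049 for Gfi1b. Calls among the 7 then numbered 0 to 1 higher and 0 to 1 lower, and over all genes 115 to 1191 higher and 118 to 1095 lower. In the lists they ran from 0 to 1 higher and 0 to 2 lower for zipper factors, 0 to 2 lower for IRF partners, 0 to 1 higher for corepressors, 0 to 1 higher and 0 to 2 lower for MITF partners, 1 to 2 higher and 0 to 3 lower for C/EBP targets, 0 to 1 higher and 0 to 3 lower for IRF8 targets, 1 to 3 higher and 0 to 1 lower for GFI1 targets, and 0 to 4 lower for MITF targets.

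With no filter on low counts 869 genes were higher and 1076 lower, and Cebpb passed (0.48, adjusted p = 0.023), 1 of the 7 higher; 3 IRF partners, 1 MITF partner, 4 MITF targets and 1 GFI1 target were lower, and 1 IRF8 target and 6 GFI1 targets higher. DESeq2 called 771 genes higher and 790 lower. It called 2 IRF partners and 3 MITF targets lower, 1 IRF8 target higher, and 3 GFI1 targets higher and 1 lower. At an adjusted p under 0.01, 125 genes were higher and 137 lower, 0 of the 7 genes was called, and the lists held 0 calls except 1 C/EBP target and the GFI1 targets higher. RLE scaling left 0 IRF partners lower, upper quartile scaling 2 lower and 0 corepressors higher, and the 5 CPM filter 0 corepressors higher. Limma-voom called 1 GFI1 target and 3 MITF targets lower. With the replicate block 0 IRF partners were lower, 1 IRF8 target and 4 GFI1 targets higher, and 1 GFI1 target and 3 MITF targets lower. That fit called 940 genes in all. Same-numbered libraries deviated from their group means with correlations of -0.10, -0.11 and 0.12, and not every library correlated best with its own number. Such correlations cannot show whether same-numbered libraries share animals or a culture. The cause of these changes was not tested.

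The difference in the Cebpa share, -0.0036 percentage points, was 0.12 with longest transcript lengths, 0.72 without length scaling, and -1.47 to 1.39 with 1 library left out. Cebpa and Cebpd did not pass the 5 CPM filter. Scaling by the longest transcript, added after the data were seen, moved the ratio of Irf8 to Irf4 from 60.02 to 119. Depth limits Cebpe, Irf4 and Gfi1, with 0 to 4 counts a library.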

Other observations

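Of 6 tested genes within 500 kb of Irf8, 1 was called, Gse1, which ends 155.0 kb before Irf8 and was higher with Arid3a-FLAG while Irf8 was lower. The neighbours of Irf8 other than Gse1 did not pass, and the lowest log2 fold change among the 6 was -0.29. Of 13 tested genes within 500 kb of Cebpb, 2 were higher, Ripor3 and Adnp, and 0 lower. Within 500 kb of Gfi1b, Cebpa, Cebpd, Cebpg and Mitf, 0 of 12, 10, 8, 8 and 1 tested genes were called. These counts stand beside 7.29% of all tested genes, and the genes were named after their values were seen.

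Among promoter windows of the other members, Gfi1b held an ARID3A motif match (TTTAAT, its reverse complement) 208 to 203 bases before its start, and the third listed start of Mitf one (ATTAAA) 98 to 93 bases before it. The ARID3A motif stood in 12.7% of all windows. The C/EBP motif stood in 2 of the 12 member windows and in 9.56% of all windows. The matches were in Gfi1 (TTGCTGAA, 143 to 136 bases before the start) and Mitf (TTGCGGAA, 129 to 122 bases before its first listed start). TATAAA stood in the Cebpa window, 30 to 25 bases before the start, and as its reverse complement in the third Mitf window. None of the 12 windows of 8 members held the GATA, IRF with ETS or MITF motifs, which stood in 9.99%, 2.30% and 17.6% of all windows.

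The summed level of erythroid markers ran from 322 to 374 CPM with LUC and from 489 to 623 CPM with Arid3a-FLAG, with Slc4a1 at 0 throughout. Endothelial and stromal markers overlapped between the groups, at 119 to 147 and 94.1 to 122 CPM.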
